A study of Mus musculus with 6 samples.

Results

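The Hox genes were followed across 3 cell populations sorted from mouse hind limb muscle at 2 ages. Members were all array probes named in the deposited value table with a symbol made of Hoxa, Hoxb, Hoxc or Hoxd and a paralog number. Of several probes for a gene the brightest, by its mean across all 6 arrays, was kept. This gave 38 probes for 37 genes, out of 19321 named genes on the array, and all 37 entered the tests. The members fall into 10 Hoxa genes on chromosome 6, 10 Hoxb genes on chromosome 11, 9 Hoxc genes on chromosome 15 and 8 Hoxd genes on chromosome 2. Hoxa3 alone had a second probe, which read only 1.1 to 2.1 on the 6 arrays and was not used.

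Hox genes encode homeodomain transcription factors that give cells their position along the body axis and, in the limb bud, from shoulder or hip to digit. In each cluster the genes stand in the order in which they act along the axis, low paralog numbers toward the head and high numbers toward the tail, and adult cells of the limb keep part of this code. Members of the Hoxa and Hoxb clusters also act in blood stem cells and in endothelium, whereas the high-numbered Hoxa and Hoxd genes build the limb skeleton.

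RNA came from C57BL/6 mice that were young (8 to 10 weeks) or aged (24 to 28 months). The populations were PDGFRa+ mesenchymal progenitors, satellite cells (the stem cells of muscle) and CD31+ or CD45+ cells, written CD31_CD45 below, which mix endothelial with hematopoietic cells. Freshly sorted cells were collected over repeated sorts and pooled, amplified, labelled with Cy5 and hybridised to one-colour arrays, 1 array for each population and age. There was thus no replicate of a population at one age, the spread in every test came from the paired ages of the 3 populations, and p-values measure only the spread between these 6 arrays.

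The sort markers followed the labels. Pdgfra, the receptor used to sort the progenitors, read 5700 and 4149 on the young and aged PDGFRa arrays and 7.6 to 60.6 on the others. Pax7, which defines satellite cells, read 1055 and 1362 on the satellite arrays, 10.6 and 3.7 on the CD31_CD45 arrays and was empty on both PDGFRa arrays. Pecam1 (CD31) read 2465 and 2451 and Ptprc (CD45) 252 and 415 on the CD31_CD45 arrays, against at most 50.1 and 4.7 elsewhere. The 10 endothelial markers, all above background on every array, summed to 43379 and 33690 on the young and aged CD31_CD45 arrays and to 512 to 985 on the other arrays. The 9 measured hematopoietic markers summed to 17580 and 21027 on the CD31_CD45 arrays, to 245 and 234 on the young PDGFRa and satellite arrays, and to 2004 and 1066 on the aged ones, with Adgre1 and Cd3e empty on both PDGFRa arrays. Lyz2 alone made up 1905 and 965 of the sums on the aged PDGFRa and satellite arrays. The 8 markers of pericytes and smooth muscle were also highest on the CD31_CD45 arrays, at 9913 and 11958, against 1075 to 6774 elsewhere. In such bulk samples, fewer cells of a type and less RNA per cell cannot be told apart.

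Levels are given below as the deposited intensity, a linear value scaled by the authors so that each array has a median of 25, and levels of different probes are not set against each other. Background here means within 2 trimmed SD of an array's blank spots, and between 20757 and 21671 of the 23473 probes (88.4% to 92.3%) exceeded it on an array. The Hox members that did so numbered 34 or 35 of 37 on each array, and none was below it on every array. The brightest of the 96 negative-control spots of an array reached 2.5 to 5.6, a limit chosen after the values were seen, and 5 to 11 members per array lay at or below it. Hoxa13, Hoxc12, Hoxd11, Hoxd12 and Hoxd13, all posterior members of their clusters, lay at or below that limit on all 6 arrays. Each of them had an empty value on 1 to 4 arrays, so no direction is read from them, though they stay in the counts and medians over members. Tests used log2 values with 50 intensity units added to every spot, which shrinks the differences of dim genes. For some members the linear ratio of deposited intensities is therefore given beside the log2 difference.

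**Figure D1:**
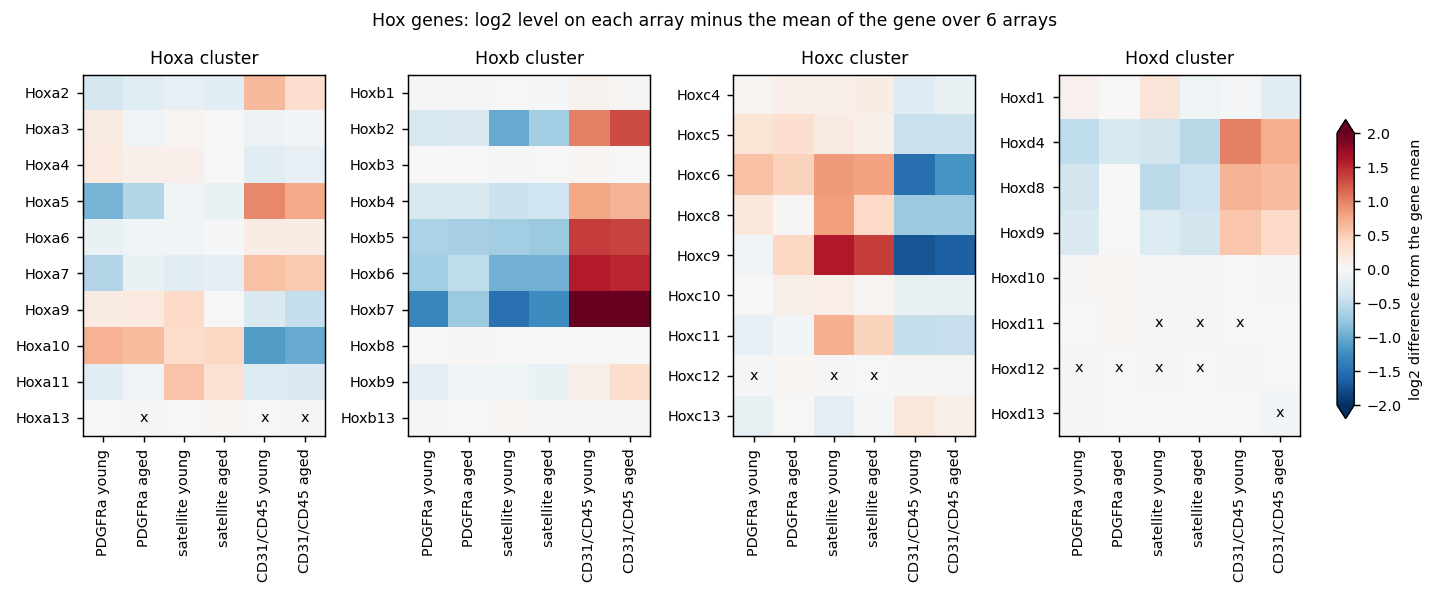
Log2 level of each of the 37 Hox genes (rows, in paralog order, 1 panel per cluster) on each of the 6 arrays (columns), as the difference from that gene's mean over the arrays, with a cross where the deposited value is empty. The columns of the CD31_CD45 arrays are red at Hoxb2 and Hoxb4 to Hoxb7 and blue at Hoxc6, Hoxc8 and Hoxc9, and the 5 genes with crosses, which lay at or below the negative-control limit on all arrays, are close to white.

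The middle of the Hoxb cluster was high in the CD31_CD45 cells and low in both other populations at both ages. Hoxb2, Hoxb4, Hoxb5, Hoxb6 and Hoxb7 were each called higher there than in PDGFRa cells and than in satellite cells, whereas Hoxb1, Hoxb3, Hoxb8, Hoxb9 and Hoxb13 were called in neither comparison. A gene was called when the limma test over all 18372 genes gave an adjusted p under 0.05 (Benjamini-Hochberg) and the difference was at least 2-fold. By this rule 10 of the 37 Hox genes were called between PDGFRa and CD31_CD45 cells, where 10.1% of all genes tested were called, and 12 between satellite and CD31_CD45 cells, where 11.7% were called. The 7 called lower in PDGFRa cells stood beside a background of 5.39% and the 7 called lower in satellite cells beside 6.56%.

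Hoxb7, a gene of the trunk mesoderm and of the budding kidney duct, read 657 and 741 on the young and aged CD31_CD45 arrays, 22.7 and 46.8 on the PDGFRa arrays and 16.2 and 24.6 on the satellite arrays. Both CD31_CD45 arrays stood far above the other 4. The linear ratio of CD31_CD45 to satellite was 40.5 in young and 30.1 in aged mice. On the log2 scale Hoxb7 was lower by -3.43 ± 0.12 (limma SE) in PDGFRa cells (adjusted p = 0.0018) and by -3.77 ± 0.12 in satellite cells (adjusted p = 0.0014). Hoxb6, active in the lateral plate mesoderm from which the limb buds grow, read 219.9 and 204 on the CD31_CD45 arrays, 17.2 and 21.8 on the PDGFRa arrays and 8.1 and 8.4 on the satellite arrays. The groups of arrays did not overlap. The differences were -2.16 ± 0.08 for PDGFRa (adjusted p = 0.0018) and -2.52 ± 0.08 for satellite cells (adjusted p = 0.0014).

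Hoxb5, which in mouse bone marrow marks long-term blood stem cells, read 141 and 134 on the young and aged CD31_CD45 arrays, 8.2 and 6.2 on the PDGFRa arrays and 6.1 and 4.8 on the satellite arrays. The low arrays stood just above the negative-control spots, so the linear ratios of 17.2 to 27.9 carry the error of small signals. The log2 differences were -2.02 ± 0.04 for PDGFRa (adjusted p = 0.00088) and -2.10 ± 0.04 for satellite cells (adjusted p = 0.00086). Hoxb4, a factor that expands blood stem cells when overexpressed, read 60.3 and 53.9 on the CD31_CD45 arrays, 10.2 and 8.9 on the PDGFRa arrays and 6.6 and 7.4 on the satellite arrays. Again all 4 other arrays were below both CD31_CD45 arrays. The differences were -1.03 ± 0.05 for PDGFRa (adjusted p = 0.0028) and -1.13 ± 0.05 for satellite cells (adjusted p = 0.0021). Hoxb2, a hindbrain segment gene, read 184 and 228 on the CD31_CD45 arrays, 53.7 and 49.4 on the PDGFRa arrays and 18.7 and 31.5 on the satellite arrays. Here the 3 populations were ordered without overlap. The differences from CD31_CD45 cells were -1.46 ± 0.09 for PDGFRa (adjusted p = 0.0042) and -2.00 ± 0.09 for satellite cells (adjusted p = 0.0022).

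Hoxd4, Hoxd8 and Hoxa5, from the middle of their own clusters, had the same direction. Hoxd4, which patterns the neck vertebrae, read 93.4 and 69.0 on the young and aged CD31_CD45 arrays, 9.6 and 14.8 on the PDGFRa arrays and 13.8 and 7.9 on the satellite arrays. The CD31_CD45 arrays stood apart from the other 4, which overlapped among themselves. The differences were -1.27 ± 0.15 for PDGFRa (adjusted p = 0.013) and -1.33 ± 0.15 for satellite cells (adjusted p = 0.0098). Hoxa5, which acts in the lung and in quiescent endothelium, read 266 and 221 on the CD31_CD45 arrays, 47.0 and 60.8 on the PDGFRa arrays and 109 and 101 on the satellite arrays. The 3 populations did not overlap. Hoxa5 was called lower in PDGFRa cells (-1.62 ± 0.15, adjusted p = 0.0086), while the satellite difference of -0.96 ± 0.15 (adjusted p = 0.021) fell just short of 2-fold on the offset scale. The linear ratio of CD31_CD45 to satellite for Hoxa5 was 2.45 in young and 2.19 in aged mice. Hoxd8, a trunk gene, read 113 and 105 on the CD31_CD45 arrays, 36.9 and 51.2 on the PDGFRa arrays and 28.4 and 32.9 on the satellite arrays. These also did not overlap. Hoxd8 was called only against satellite cells (-1.12 ± 0.12, adjusted p = 0.0094), with -0.84 ± 0.12 against PDGFRa cells (adjusted p = 0.020). The difference between these values was 0.28 ± 0.12 (PDGFRa minus satellite, adjusted p = 0.20).

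**Figure D2:**
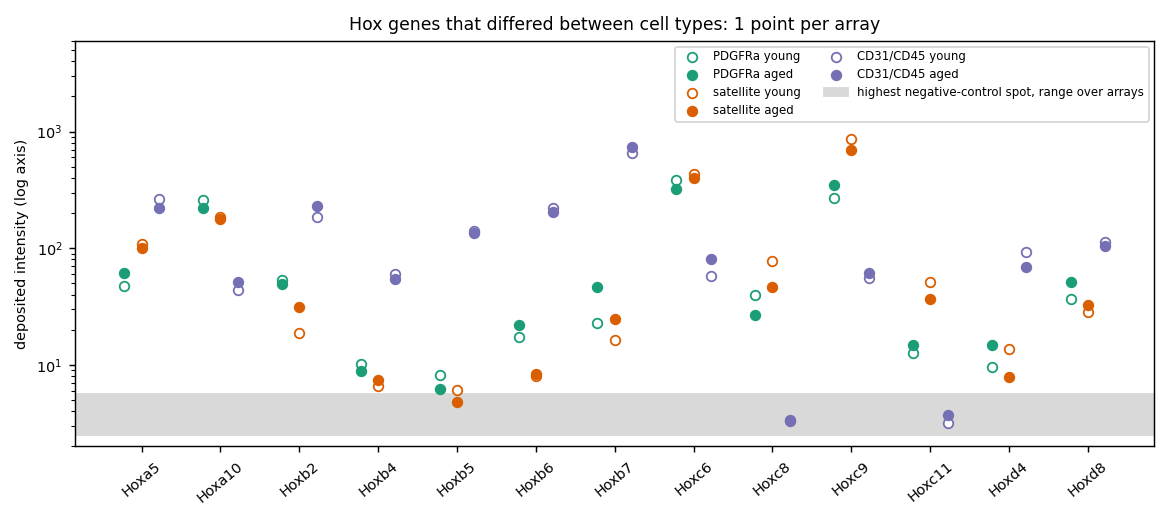
Deposited intensity (log axis) of the 13 Hox genes called in any comparison of populations, 1 point per array, open for young and filled for aged, with the range over arrays of the brightest negative-control spot in grey. The CD31_CD45 points are the highest at Hoxa5, Hoxb2, Hoxb4 to Hoxb7, Hoxd4 and Hoxd8 and the lowest at Hoxa10, Hoxc6, Hoxc8, Hoxc9 and Hoxc11, and at Hoxc8 and Hoxc11 they lie in the grey band.

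Leaving out 1 array removed no call of Hoxb2, Hoxb5, Hoxb6 or Hoxb7. Without the young CD31_CD45 array, Hoxa5 (adjusted p = 0.051), Hoxd4 (adjusted p = 0.072) and, by its fold, Hoxb4 (-0.98) lost their call against PDGFRa cells in limma, and the count of Hox calls went from 10 to 6. Hoxd4 lost it against PDGFRa cells also without the aged CD31_CD45 array (adjusted p = 0.052), and against satellite cells without the young satellite (adjusted p = 0.051), aged satellite (adjusted p = 0.055) or young CD31_CD45 array (adjusted p = 0.060). Hoxd8 lost its call without the young satellite (adjusted p = 0.055), aged satellite (adjusted p = 0.054) or young CD31_CD45 array (-0.97). With each spot's local background in place of the blank spots, a column that followed the spot's own signal (r = 0.961 to 0.980 across spots), Hoxb5 and Hoxb7 were the only Hox genes called against CD31_CD45 cells, and Hoxd4 turned to 0.033 and 0.031 (adjusted p = 0.90 and 0.87). The scanner headers give each array a gain slope, 0.465 to 0.466 for the PDGFRa arrays and the young satellite array and 0.477 to 0.478 for the other 3. The arrays were split here by this slope into 2 sets, called scanner settings below. What the slope reflects is not stated. PDGFRa and CD31_CD45 arrays were thus never in the same set. With this setting as a block, Hoxb5, Hoxb6, Hoxb7 and Hoxa10 alone among the 10 remained called between those populations, and the other 6 had the same direction at adjusted p = 0.067 to 0.15. Calls over all genes in that comparison fell too, from 1852 to 834, so the loss was not particular to the Hox genes. Between satellite and CD31_CD45 cells the block removed the calls of Hoxd4 (-1.41, adjusted p = 0.051), Hoxd8 (adjusted p = 0.055) and Hoxc11, and 9 of 12 remained. The aged satellite and CD31_CD45 arrays share a setting, and within that pair the satellite array was lower by -2.00 for Hoxb2, -1.07 for Hoxb4, -2.10 for Hoxb5, -2.49 for Hoxb6 and -3.77 for Hoxb7. The endothelial, hematopoietic and pericyte marker sums given above were likewise highest on the CD31_CD45 arrays. At each age the endothelial and pericyte sums, unlike the hematopoietic sum, were higher in satellite than in PDGFRa cells. These Hoxb genes read lower in satellite than in PDGFRa cells. The part of these markers in the result was not tested.

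The sequence just upstream of a few of these genes is shown because they come from 3 clusters yet were high in the same population, with Hoxa10, which had the opposite pattern, for contrast. Promoters are RefSeq's for GRCm38.p6, as the 250 bases before the annotated start, 5′ to 3′ on the gene's strand, with CpG dinucleotides in capitals. They are, in order, chr6:52204588-52204837 on the minus strand, chr11:96318017-96318266 on the plus strand, chr2:74721728-74721977 on the plus strand, and, for one of the annotated starts of Hoxa10, chr6:52234940-52235189 on the minus strand.
Hoxa5: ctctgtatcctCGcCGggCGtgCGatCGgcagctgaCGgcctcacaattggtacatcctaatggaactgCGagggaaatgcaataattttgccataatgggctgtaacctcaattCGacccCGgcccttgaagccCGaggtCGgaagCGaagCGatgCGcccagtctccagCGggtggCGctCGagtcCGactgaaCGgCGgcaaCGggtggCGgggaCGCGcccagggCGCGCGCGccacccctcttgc
Hoxb4: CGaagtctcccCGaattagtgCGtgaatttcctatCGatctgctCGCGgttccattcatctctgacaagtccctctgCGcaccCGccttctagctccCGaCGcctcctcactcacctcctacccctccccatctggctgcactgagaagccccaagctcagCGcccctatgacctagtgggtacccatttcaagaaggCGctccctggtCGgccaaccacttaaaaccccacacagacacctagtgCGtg
Hoxd4: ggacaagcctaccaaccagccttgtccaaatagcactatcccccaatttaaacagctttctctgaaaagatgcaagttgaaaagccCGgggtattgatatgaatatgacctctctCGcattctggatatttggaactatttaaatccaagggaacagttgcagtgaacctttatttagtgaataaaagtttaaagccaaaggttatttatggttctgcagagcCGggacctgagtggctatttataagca
Hoxa10: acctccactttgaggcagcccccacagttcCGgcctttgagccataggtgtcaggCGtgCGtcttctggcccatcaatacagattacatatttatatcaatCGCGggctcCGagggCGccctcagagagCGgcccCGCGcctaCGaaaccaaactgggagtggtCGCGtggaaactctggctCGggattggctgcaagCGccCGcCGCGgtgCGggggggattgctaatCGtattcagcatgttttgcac
These windows hold 28 CpG for Hoxa5, 14 for Hoxb4, 3 for Hoxd4 and 20 for Hoxa10, whose other start holds 7. The printed genes high in CD31_CD45 cells thus ranged from a CpG-poor to a CpG-rich start. Hoxb2, Hoxb5, Hoxb6 and Hoxb7 had no promoter to examine, nor had Hoxc6, Hoxc8, Hoxc9 and Hoxc11. The table held 23 promoters for 21 of the 37 members, with a median of 13 CpG, against 6 over all 32851 promoters of that length. The composite site of PBX and HOX proteins, TGATNNAT, was present on either strand in 4 of the 23 Hox promoters (Hoxa2, Hoxb1, Hoxb8 and 1 start of Hoxd11), beside 7.68% of all promoters. The MEIS site TGACAG was in those of Hoxa2 and Hoxa3 only (2 of 23, beside 15.9% of all), and the GATA site AGATAA in none of the 23, beside 9.99% of all. None of the windows printed here holds any of the 3 motifs, which says only that these letters are not in these 250 bases.

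The opposite pattern, low in CD31_CD45 cells and high in both other populations, was found at Hoxa10 and along the middle of the Hoxc cluster. Against CD31_CD45 cells, Hoxa10, Hoxc6 and Hoxc9 were called higher in PDGFRa cells (3 of 37, beside 4.69% of all genes), and Hoxa10, Hoxc6, Hoxc8, Hoxc9 and Hoxc11 in satellite cells (5 of 37, beside 5.11%). Hoxa10, a gene of the lower trunk and hind limb, read 258 and 221 on the young and aged PDGFRa arrays, 184 and 178 on the satellite arrays and 43.5 and 50.9 on the CD31_CD45 arrays. The 3 populations did not overlap. The differences from CD31_CD45 cells were 1.73 ± 0.06 for PDGFRa (adjusted p = 0.0018) and 1.45 ± 0.06 for satellite cells (adjusted p = 0.0021). No left-out array and no scanner block removed either call of Hoxa10, but with the local background it reached 1.23 at adjusted p = 0.063 and 0.65 at adjusted p = 0.12 in limma.

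Hoxc6, a gene of the upper trunk at the level of the fore limb, read 388 and 319.7 on the PDGFRa arrays, 435 and 399 on the satellite arrays and 57.9 and 80.7 on the CD31_CD45 arrays. Both CD31_CD45 arrays were far below the rest. The differences were 1.87 ± 0.13 for PDGFRa (adjusted p = 0.0053) and 2.18 ± 0.13 for satellite cells (adjusted p = 0.0036). Without the young PDGFRa array the former was 1.74 at adjusted p = 0.0504 in limma. Hoxc9, which marks the thoracic level and holds back limb-level identity in motor neurons, read 866 and 691 on the satellite arrays, 267 and 350.2 on the PDGFRa arrays and 55.5 and 61.5 on the CD31_CD45 arrays. Its satellite difference was 3.18 ± 0.19 over CD31_CD45 cells (adjusted p = 0.0034), the largest among the Hox genes called higher there, and the PDGFRa difference was 1.86 ± 0.19 (adjusted p = 0.0097). That PDGFRa call was lost without the young CD31_CD45 array (adjusted p = 0.070) or without the aged one (adjusted p = 0.070).

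Hoxc8, a gene of the lower fore limb level and thorax, read 77.5 and 46.1 on the satellite arrays, 39.8 and 26.5 on the PDGFRa arrays and 3.3 and 3.4 on the CD31_CD45 arrays. Against the negative-control limits of 2.9 (young) and 5.6 (aged), the young CD31_CD45 value lay just above and the aged one below. The linear ratio of satellite to CD31_CD45 was 23.5 in young mice, and none is given for aged mice. It was called in satellite cells (1.33 ± 0.12, adjusted p = 0.0074), and in PDGFRa cells it reached 0.85 ± 0.12 (adjusted p = 0.021), under 2-fold on the offset scale. Hoxc11, a hind limb gene, read 51.1 and 36.6 on the satellite arrays, 12.6 and 14.9 on the PDGFRa arrays and 3.2 and 3.7 on the CD31_CD45 arrays. There too the young value was just above the control limit and the aged one below. Its satellite difference was 1.04 ± 0.11 (adjusted p = 0.0091). This call was lost without the young satellite array (0.88), which is the same fit as the scanner setting as a block. It was also lost, by its adjusted p, without the young CD31_CD45 array (1.00) or the aged CD31_CD45 array (1.08). Within the aged pair, which shares a scanner setting, satellite minus CD31_CD45 was 1.99 for Hoxc6, 1.11 for Hoxc8, 3.02 for Hoxc9, 0.91 for Hoxc11 and 1.42 for Hoxa10.

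Between PDGFRa progenitors and satellite cells, 1 Hox gene was called. It was Hoxc9, 1 of 37 members, beside 7.28% of all genes (1338 of 18372). It was lower in PDGFRa cells by -1.32 ± 0.19 (adjusted p = 0.024). Of all genes, 4.09% were called higher in PDGFRa cells and 3.2% lower. Both satellite arrays (866 and 691) stood above both PDGFRa arrays (267 and 350.2). The difference was -1.66 in the young pair, which shares a scanner setting, and -0.97 in the aged pair. The call was lost without any 1 of 5 arrays, at differences of -1.05 to -1.58, and kept only without the aged satellite array. Without either PDGFRa array no gene at all was called in this comparison, so the loss there is not particular to Hoxc9. By adjusted p alone, with no minimum fold, 3 more members passed: Hoxc11 (-0.68 ± 0.11, adjusted p = 0.030), Hoxa11 (-0.58 ± 0.12, adjusted p = 0.048) and Hoxb2 (0.55 ± 0.09, adjusted p = 0.031). That made 4 of 37 members, beside 4509 of all 18372 genes. Hoxa11, which forms the middle segment of the limb together with its paralogs, read 157 and 121 on the satellite arrays, 79.2 and 83.1 on the PDGFRa arrays and 73.1 and 72.8 on the CD31_CD45 arrays. Hoxa11, Hoxc9 and Hoxc11 thus stood highest on both satellite arrays, as did Hoxc6, Hoxc8 and the dim Hoxa13 and Hoxb13. These were 7 of 37 members, beside 23% of all genes. The median of all 37 members between these populations was 0.012, beside -0.0087 over all genes.

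**Figure D3:**
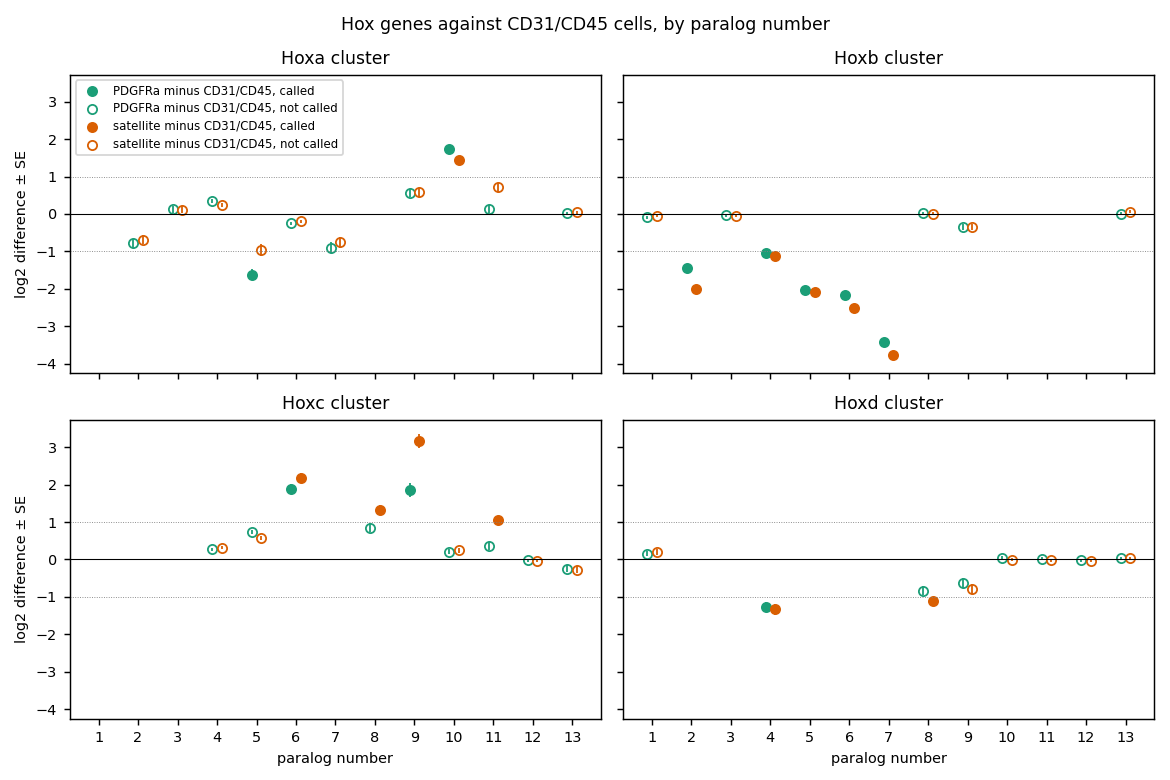
Log2 difference from CD31_CD45 cells (y axis, ± limma SE) of PDGFRa cells and of satellite cells against paralog number (x axis), 1 panel per cluster, filled where called, with dotted lines at 2-fold. In the Hoxb panel the points of both populations go down from number 4 to -3.43 and -3.77 at number 7 and return to near 0 at number 8, while in the Hoxc panel they lie above 0 from number 4 to number 11.

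By cluster, the Hoxb genes as a group were lower and the Hoxc genes higher in PDGFRa and satellite cells than in CD31_CD45 cells, and this direction of both medians was the same under each scaling tried. Of 10 Hoxb genes 5 were called lower in each comparison and none higher, with a median of -0.69 for PDGFRa and -0.74 for satellite cells. Of 9 Hoxc genes 2 were called higher in PDGFRa and 4 in satellite cells and none lower, with medians of 0.36 and 0.57. Of all genes, 5.39% were called lower in PDGFRa and 6.56% in satellite cells, and 4.69% and 5.11% higher. The medians over all genes were 0.012 and 0.022. The Hoxa median was near these, at 0.070 and 0.079, and its genes were split. The central Hoxa4 to Hoxa7 had a median of -0.58 for PDGFRa and -0.47 for satellite cells. The posterior Hoxa9 to Hoxa13 had 0.35 and 0.64. The Hoxd median was -0.0025 and -0.028, close to all genes, but Hoxd11 to Hoxd13 lay at or below the control limit on all arrays. Over genes above background on all 6 arrays the Hoxd medians were -0.62 and -0.79. Of those genes, Hoxd4, Hoxd8 and Hoxd9 were negative in both comparisons, Hoxd1 was positive and Hoxd10 near 0. Median scaling raised the medians of all genes to 0.094 and 0.11, so signs near 0 changed with it: the Hoxd medians became 0.13 and 0.12 and the Hoxa median for PDGFRa -0.0018.

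By position, the genes of paralogs 4 to 8, taken here as central, held most calls toward CD31_CD45 cells. Of 15 such genes, 6 were called lower in PDGFRa cells and 6 in satellite cells, beside 1 and 2 called higher. Of all genes, 5.39% and 6.56% were called lower in these comparisons and 4.69% and 5.11% higher. The medians of the central genes were -0.84 and -0.75 and stayed negative under every alternative run. Of the 6 anterior genes (paralogs 1 to 3), Hoxb2 was the only one called, lower in both comparisons, and their medians were -0.059 and -0.048. With median scaling both were 0.022, still below the shifted medians of all genes given above. Of the 16 posterior genes (paralogs 9 to 13), 2 were called higher in PDGFRa and 3 in satellite cells and none lower, with medians of 0.027 and 0.041. Hoxa13, Hoxc12 and Hoxd11 to Hoxd13, at or below the control limit throughout, are among them. The same positions differed between clusters: the central Hoxc genes were positive in 4 of 4 in both comparisons (medians 0.79 and 0.95), whereas central Hoxb genes were negative in 4 of 5 (medians -2.02 and -2.10) and the central Hoxd pair in 2 of 2 (medians -1.05 and -1.23). These medians describe the lists and were not tested, and both comparisons share the CD31_CD45 arrays.

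Counted by overlap alone, 17 of the 37 members had both CD31_CD45 arrays above the other 4, where 19.6% of all genes tested did, and 13 had both below, where 25.1% did. The first count includes Hoxd12 and the second Hoxd13, both at or below the control limit on all arrays. For satellite cells 7 members were above the other 4 arrays (background 23%) and 7 below (background 14.1%, Hoxd11 at the control limit among them), and for PDGFRa cells 4 were above (background 17%) and 4 below (background 13.4%). The 7 above in satellite cells were Hoxa11, Hoxc6, Hoxc8, Hoxc9 and Hoxc11, and the dim Hoxb13 and Hoxa13, the latter at or below the control limit throughout. The 4 above in PDGFRa cells were Hoxa4, Hoxa10, Hoxc5 and Hoxd10, of which Hoxd10 read 5.9 and 5.8 against 4.8 to 4.9 elsewhere, close to the control spots.

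A further 9 members passed the adjusted p against CD31_CD45 cells in limma and missed the 2-fold limit. Hoxc5 read 28.9 and 28.7 on the PDGFRa arrays, 23.3 and 21.0 on the satellite arrays and 3.5 and 4.2 on the CD31_CD45 arrays. Its differences from the latter were 0.74 ± 0.05 (adjusted p = 0.0053) and 0.57 ± 0.05 (adjusted p = 0.0074). Hoxc4 read 15.9 and 16.1, 17.4 and 19.2, and 6.1 and 9.9 on the same arrays. Its differences were 0.27 ± 0.04 (adjusted p = 0.022) and 0.32 ± 0.04 (adjusted p = 0.013). Both are upper trunk genes next to Hoxc6. The linear ratios of PDGFRa to CD31_CD45 were 2.61 and 1.63 for Hoxc4, and 8.26 in young mice for Hoxc5, whose aged CD31_CD45 value lay below the brightest control spot. Hoxa7 read 289.8 and 268 on the CD31_CD45 arrays and 116 to 154 elsewhere. The differences were -0.91 ± 0.15 for PDGFRa (adjusted p = 0.025) and -0.75 ± 0.15 for satellite cells (adjusted p = 0.032). Hoxa2, a gene of the branchial arches, read 63.2 and 44.0 there and 14.4 to 20.2 elsewhere (-0.78 ± 0.12 and -0.68 ± 0.12, adjusted p = 0.024 and 0.027). Hoxd9 followed the same direction (-0.62 ± 0.13 and -0.79 ± 0.13, adjusted p = 0.048 and 0.024), as did Hoxa6 (-0.25 ± 0.04 and -0.19 ± 0.04, adjusted p = 0.022 and 0.032).

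Hoxa9, which acts in blood progenitors and in satellite cells of old mice, had the opposite direction. It read 54.0 and 48.9 on the young and aged PDGFRa arrays, 65.9 and 41.8 on the satellite arrays and 28.3 and 21.3 on the CD31_CD45 arrays. The differences from the last were 0.56 ± 0.11 (adjusted p = 0.039) and 0.57 ± 0.11 (adjusted p = 0.031). Hoxa11, whose values are given above, reached 0.71 ± 0.12 in satellite cells (adjusted p = 0.023). Hoxa4 passed the threshold for PDGFRa (0.34 ± 0.06, adjusted p = 0.029) and read 29.1 and 22.8 there, 23.9 and 20.5 on the satellite arrays and 12.3 and 14.9 on the CD31_CD45 arrays. In all, 20 of 37 members passed the adjusted p between PDGFRa and CD31_CD45 cells, beside 5274 of all 18372 genes. Between satellite and CD31_CD45 cells 21 of 37 passed, beside 6408 of all genes. The remaining members that were measured above the controls on most arrays, such as Hoxa3 (45.0 to 69.2), Hoxb9 (37.3 to 67.3), Hoxc10 (12.7 to 22.8), Hoxc13 (43.5 to 70.0) and Hoxd1 (21.8 to 41.7), passed in no comparison of populations. Hoxb1, Hoxb3, Hoxb8, Hoxb13 and Hoxd10 read 2.1 to 7.4 on all arrays and also passed in none.

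No Hox gene was called for age. In the age term common to the 3 populations, limma called none of the 37 members and none of all 18372 genes (0%). At an unadjusted p under 0.05 were 2026 genes, among them Hoxb7 (0.34 ± 0.10, adjusted p = 0.40) and Hoxd1 (-0.20 ± 0.06, adjusted p = 0.42). Within a population there was 1 aged and 1 young array and no test. No member reached 2-fold in PDGFRa, satellite or CD31_CD45 cells, where 0.416%, 1.22% and 0.575% of genes did. The difference of largest size was that of Hoxb7 in PDGFRa cells, 0.58, from 22.7 to 46.8, a linear ratio of 2.06. In satellite cells it was that of Hoxc8, -0.45, from 77.5 to 46.1, and in CD31_CD45 cells that of Hoxc6, 0.33, from 57.9 to 80.7. Beside the value of Hoxb7, the hematopoietic marker sum of the PDGFRa arrays was 245 in young and 2004 in aged mice, of which Lyz2 made up 110 and 1905, whereas the endothelial sum was 517 and 512 and Ptprc itself read 4.7 and 3.5. Beside the satellite values of Hoxc8, and of Hoxa9 given next, the marker sums of the young and aged satellite arrays were 838 and 3229 for tendon (6 of 6 genes higher in aged), 6793 and 10779 for mesenchymal progenitors (10 of 11), 3967 and 6774 for pericytes and smooth muscle (8 of 8), 2329 and 4343 for myofibres (7 of 7), and 25980 and 19859 for satellite cells (3 of 10). Hematopoietic markers, at 234 and 1066, were higher in 7 of 9, and Lyz2 alone made up 147 and 965 of these sums. The part of all these markers in the Hox values was not tested.

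**Figure D4:**
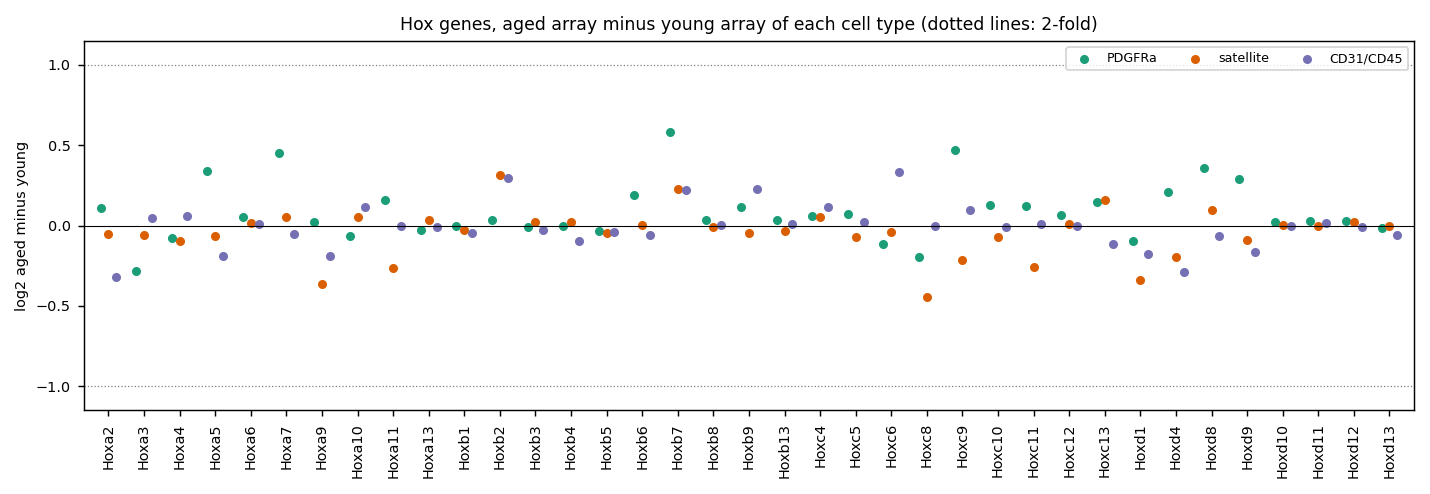
Log2 difference of the aged from the young array (y axis) for each of the 37 Hox genes (x axis, in cluster order), 1 point for each of the 3 populations, with dotted lines at 2-fold. No point reaches the dotted lines, and the highest is Hoxb7 in PDGFRa cells at 0.58 and the lowest Hoxc8 in satellite cells at -0.45.

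Among members above background on the brighter array, 24 of 36 were higher in aged PDGFRa cells (median 0.044, all genes -0.0019), 13 of 34 in aged satellite cells (median -0.039, all genes -0.015) and 15 of 36 in aged CD31_CD45 cells (median -0.0045, all genes -0.013). The share of all genes higher in aged cells was not counted. Members at the control limit are among those counted, so no shift of the Hox genes with age is read from these counts. The population contrasts stood at both ages: Hoxb7 was -3.61 in young and -3.25 in aged mice between PDGFRa and CD31_CD45 cells, and Hoxc9 3.33 and 3.02 between satellite and CD31_CD45 cells. Hoxa9 in satellite cells differed by -0.37 with age, from 65.9 to 41.8, and Hoxa5 and Hoxa7 in PDGFRa cells by 0.34 and 0.45. With 1 array on each side, none of these values has an error of its own.

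Hox proteins bind DNA with partners of the TALE homeodomain class (Pbx, Meis and Pknox), and 8 of 9 such genes were tested. Pknox1 was the only one called: it read 121 and 100.3 on the satellite arrays, 40.6 and 32.5 on the PDGFRa arrays and 28.0 and 22.1 on the CD31_CD45 arrays. It was lower in PDGFRa than satellite cells by -1.03 ± 0.05 (adjusted p = 0.0057) and higher in satellite than CD31_CD45 cells by 1.31 ± 0.05 (adjusted p = 0.0016). Of all genes, 7.28% and 11.7% were called in these comparisons. Between PDGFRa and CD31_CD45 cells 10.1% were, and no gene of the list. Meis1, a partner in blood and limb cells, read 38.6 and 20.5 on the PDGFRa arrays, 32.6 and 28.9 on the satellite arrays and 2.8 and 3.0 on the CD31_CD45 arrays. Its differences of 0.78 ± 0.10 and 0.81 ± 0.10 from the last passed the adjusted p (0.016 and 0.012) and not the 2-fold limit. The medians of the list were 0.057, 0.20 and 0.16 for PDGFRa minus satellite, PDGFRa minus CD31_CD45 and satellite minus CD31_CD45, beside -0.0087, 0.012 and 0.022 over all genes.

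Limb identity and patterning factors, which act with the Hox genes in the limb bud, were all 21 tested. Against satellite cells 5 were called higher in PDGFRa cells (beside 4.09% of all genes), among them the mesenchymal homeobox genes Prrx2 (2.62 ± 0.14, adjusted p = 0.0070), Shox2 (2.19 ± 0.28, adjusted p = 0.020) and Msx1 (2.03 ± 0.13, adjusted p = 0.0082), and 1 was lower (beside 3.2%), Alx4 (-1.56 ± 0.23, adjusted p = 0.025). Against CD31_CD45 cells 6 were higher in PDGFRa cells (beside 4.69%), with Prrx2 (3.11 ± 0.14, adjusted p = 0.0027) and Shox2 (2.10 ± 0.28, adjusted p = 0.017) farthest, and Tbx3 was the 1 called lower (-1.50 ± 0.07, adjusted p = 0.0028, beside 5.39%). In satellite cells, where 5.11% of all genes were called higher than in CD31_CD45 cells and 6.56% lower, Alx4 was higher (1.64 ± 0.23, adjusted p = 0.016), and Tbx3 (-1.69 ± 0.07, adjusted p = 0.0021) and Msx1 (-1.93 ± 0.13, adjusted p = 0.0044) were lower. The hind limb factor Tbx4 read 66.2 and 58.8 on the satellite arrays, 36.5 and 31.7 on the PDGFRa arrays and 23.7 and 17.1 on the CD31_CD45 arrays, without overlap. On the offset log2 scale its differences were under 2-fold. The largest was 0.83 ± 0.06 for satellite minus CD31_CD45 cells (limma adjusted p = 0.0047). The fore limb counterpart of Tbx4, Tbx5, read 2.8 to 9.6.

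Of the Polycomb and trithorax genes that keep Hox clusters silent or active, 20 of 21 were tested. The histone demethylase Kdm6b was lower in PDGFRa than satellite cells (-1.60 ± 0.13, adjusted p = 0.011) and higher in satellite than CD31_CD45 cells (1.12 ± 0.13, adjusted p = 0.012). The Polycomb subunit Phc2 was lower in PDGFRa than CD31_CD45 cells (-1.07 ± 0.07, adjusted p = 0.0044). In each of the 3 comparisons 1 of 20 was thus called. Of all genes, 7.28% were called for PDGFRa minus satellite, 10.1% for PDGFRa minus CD31_CD45 and 11.7% for satellite minus CD31_CD45. The list's medians in this order were -0.41, -0.13 and 0.24. Of the 8 ParaHox and Evx genes, relatives of the Hox genes, only Cdx2 was called, in a comparison where 11.7% of all genes were. It was higher in satellite than CD31_CD45 cells (1.03 ± 0.04, adjusted p = 0.0016), where it read 101 and 103 against 32.7 and 35.2. None of the 4 lists had a gene called for age.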

How the data were processed

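RNA of 3 sorted populations at 2 ages was measured on 6 one-colour arrays, grouped by the sample labels. Scanner files list 27456 spots with a median intensity at 635 nm, combined over 3 gains per the file headers. The deposited value table holds linear intensity scaled by the authors to a median of 25, with empty cells for spots not above background. Genome coordinates printed are RefSeq's.

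Scanner intensities were corrected with limma's normexp (background: the 5% trimmed mean of 2736 blank spots, offset 50), turned to log2 and quantile normalised. Genes above background on at least 2 arrays (18372) entered 1 linear model with cell type and age (limma 3.58.1, R 4.3.3, 2 residual and 1.50 prior degrees of freedom), two-sided, with Benjamini-Hochberg adjustment over all genes, tested on simulated data first. The number of arrays limits the precision. Gene names are those of the array annotation, with symbols brought up to date through Entrez identifiers. The members and lists were chosen with earlier results of these data known. Named are all Hox members, in full those called or farthest in their cluster, the sort markers, and up to the 4 farthest called genes of each list. Alternatives were background, offset, scaling, the authors' table, filters, model, scanner setting, probe choice, threshold and each array left out.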

Additional observations from a re-analysis of the deposited data

Results flagged for a closer look

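Hoxc9 and Hoxd4 had age differences of opposite sign in a pair of populations, each over 0.2 on the log2 scale. For Hoxc9, aged minus young was 0.47 in PDGFRa cells (from 267 to 350.2) and -0.21 in satellite cells (from 866 to 691). For Hoxd4 it was 0.21 in PDGFRa cells (from 9.6 to 14.8) and -0.29 in CD31_CD45 cells (from 93.4 to 69.0). Each value is 1 aged array against 1 young array, and the difference between populations was not tested.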

How the results depend on the processing

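Each of the 13 called Hox genes kept its direction against CD31_CD45 cells under every alternative, except Hoxd4 with the local background (0.033 for PDGFRa and 0.031 for satellite cells), and the cause was not tested. Counts of Hox genes called between PDGFRa and satellite cells, PDGFRa and CD31_CD45 cells, and satellite and CD31_CD45 cells were 1, 10 and 12. They were 0, 2 and 2 with the local background, 2, 15 and 16 with no background correction or with an offset of 10, 4, 18 and 18 in the authors' value table, 1, 8 and 7 with an offset of 100, 1, 4 and 9 with the scanner setting as a block, and 4, 20 and 21 by adjusted p alone. The larger offset shrinks every difference and the last rule sets no fold, by construction. Over all genes the counts were 1338, 1852 and 2145, and they moved too. They were 68, 287 and 341 with the local background and 1925, 2612 and 2983 with no background correction. With offsets of 10 and 100 they were 2211, 2940 and 3377, and 925, 1410 and 1588. In the authors' table they were 3011, 3800 and 4426, and by adjusted p alone 4509, 5274 and 6408. With the scanner setting as a block, 834 genes were called between PDGFRa and CD31_CD45 cells. Leaving out 1 array gave 0 to 1, 6 to 12 and 9 to 12, and 6 came without the young CD31_CD45 array. With 1 array left out, the lone array of a population is assumed to vary like the others. In the comparisons of satellite cells, the scanner block is the same fit as leaving out 1 satellite array. That is the aged one against PDGFRa cells and the young one against CD31_CD45 cells. For age, 1 member reached 2-fold in PDGFRa cells in the authors' table (Hoxb7), and 1 each in satellite and CD31_CD45 cells with the local background. No filter, no age term, limma-trend and the other probe choice left all these counts as they were. The model pairs the arrays by age through its age term, and no further block by replicate was fitted because the labels give 1 array per group and no replicate numbers.

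Median log2 differences from CD31_CD45 cells by cluster and position moved by more than their spread between the ages as follows. With no background correction, medians were -1.03 (Hoxb), 0.71 (Hoxc), -0.13 (anterior), 0.068 (posterior) for PDGFRa cells, and 0.13 (Hoxa), -1.13 (Hoxb), 1.06 (Hoxc), -0.071 (Hoxd), -0.10 (anterior), -0.83 (central), 0.10 (posterior) for satellite cells. With each spot's local background, medians were -0.018 (Hoxa), -0.37 (Hoxb), 0.15 (Hoxc), -0.036 (anterior), -0.086 (central) for PDGFRa cells, and 0.044 (Hoxa), -0.31 (Hoxb), 0.25 (Hoxc), 0.0090 (Hoxd), 0.0061 (anterior), -0.11 (central) for satellite cells. With an offset of 10, medians were 0.12 (Hoxa), -1.16 (Hoxb), 0.94 (Hoxc), -0.17 (anterior), 0.10 (posterior) for PDGFRa cells, and 0.17 (Hoxa), -1.31 (Hoxb), 1.34 (Hoxc), -0.11 (Hoxd), -0.14 (anterior), -0.85 (central), 0.16 (posterior) for satellite cells. With an offset of 100, medians were -0.46 (Hoxb), 0.20 (Hoxc), -0.032 (anterior) for PDGFRa cells, and 0.052 (Hoxa), -0.49 (Hoxb), 0.33 (Hoxc), -0.014 (Hoxd), -0.66 (central) for satellite cells. With median scaling, which raised the medians of all genes to 0.094 for PDGFRa and 0.11 for satellite cells, medians were -0.0018 (Hoxa), -0.78 (Hoxb), 0.46 (Hoxc), 0.13 (Hoxd), 0.022 (anterior), 0.17 (posterior) for PDGFRa cells, and -0.83 (Hoxb), 0.64 (Hoxc), 0.12 (Hoxd), 0.022 (anterior), -1.01 (central), 0.20 (posterior) for satellite cells. With cyclic loess, medians were -0.76 (Hoxb), -0.079 (anterior) for PDGFRa cells, and 0.031 (Hoxa), -0.85 (Hoxb), -0.87 (central) for satellite cells. In the authors' value table, medians were 0.15 (Hoxa), -1.31 (Hoxb), 1.73 (Hoxc), 0.072 (Hoxd), -0.43 (anterior), 0.23 (posterior) for PDGFRa cells, and 0.39 (Hoxa), -1.73 (Hoxb), 2.26 (Hoxc), -0.042 (Hoxd), -0.26 (anterior), -0.91 (central), 0.52 (posterior) for satellite cells. Over genes above background on all 6 arrays, medians were 0.13 (Hoxa), 0.55 (Hoxc), -0.62 (Hoxd), 0.13 (posterior) for PDGFRa cells, and 0.11 (Hoxa), 0.80 (Hoxc), -0.79 (Hoxd), 0.25 (posterior) for satellite cells. With the scanner setting as a block, medians were -0.070 (Hoxa), -0.76 (Hoxb), 0.23 (Hoxc), -0.029 (Hoxd) for PDGFRa cells, and 0.11 (Hoxa), -0.83 (central) for satellite cells. With 1 array left out they ranged over -0.0080 to 0.083 (Hoxa), -0.71 to -0.67 (Hoxb), 0.28 to 0.48 (Hoxc), -0.015 to 0.0096 (Hoxd), -0.075 to -0.043 (anterior), -1.01 to -0.67 (central), 0.016 to 0.038 (posterior) for PDGFRa cells, and over 0.029 to 0.13 (Hoxa), -0.78 to -0.70 (Hoxb), 0.51 to 0.62 (Hoxc), -0.037 to -0.019 (Hoxd), -0.064 to -0.031 (anterior), -0.91 to -0.60 (central), 0.019 to 0.055 (posterior) for satellite cells. The median of all Hox genes between PDGFRa and satellite cells ranged over -0.015 to 0.039. Dim members near the control spots limit what these medians can show.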

Other observations

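Noncoding genes of the Hox clusters were looked at after the Hox values were seen, and 4 had a named probe. Hoxb5os, antisense in the Hoxb cluster, read 12.1 and 9.1 on the young and aged CD31_CD45 arrays and 3.2 to 5.4 on the others. Hoxd3os1, beside a Hoxd gene with no named probe here, read 14.2 and 11.1 on the CD31_CD45 arrays and 1.2 to 3.2 on the others. Both sets of CD31_CD45 values thus stood above the other 4 arrays, as did those of the coding Hoxb5 and Hoxd4. On the offset log2 scale Hoxb5os differed from CD31_CD45 cells by -0.23 ± 0.04 in PDGFRa cells (limma adjusted p = 0.035) and -0.20 ± 0.04 in satellite cells (adjusted p = 0.043), and Hoxd3os1 by -0.38 ± 0.06 (adjusted p = 0.022) and -0.35 ± 0.06 (adjusted p = 0.022), none of them 2-fold. Hottip, of the posterior end of the Hoxa cluster, read 4.6 and 3.8 on the young and aged satellite arrays, where the brightest control spots read 3.0 and 2.9, and 1.8 to 3.1 on the other arrays. Hoxaas2 read 3.5 on the young CD31_CD45 array (brightest control 2.9) and 1.2 to 2.3 on the others, below their brightest controls. The strand that each probe reads was not examined, so reads of overlapping coding and noncoding transcripts cannot be told apart.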
